A study of Rattus norvegicus with 4 samples.

Results

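The genes described here encode subunits of voltage-gated sodium channels, voltage-gated calcium channels and hyperpolarisation-activated cyclic nucleotide-gated (HCN) channels. They were chosen by gene symbol: Scn genes ending in a or b, Cacna1, Cacna2d, Cacnb and Cacng genes, and Hcn genes. Of 14217 genes named on the rat array, 39 matched. Where several probe sets named a gene, the one with the highest mean over the 4 arrays was used. 20 of the 39 had a mean intensity above 62.75, which is the midpoint of all non-control probe sets, and are called measured below. The other 19 were dim and are given apart.

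Voltage-gated sodium channels start and carry the action potential. Their large α subunit forms the pore, and smaller β subunits set its gating, its membrane density and its contact with the axon. Voltage-gated calcium channels turn depolarisation into calcium entry. Their α1 subunit forms the pore, and α2δ and β subunits bring it to the membrane. The γ family includes proteins that accompany AMPA-type glutamate receptors and are better known for that role. HCN channels open on hyperpolarisation and shape the integration of dendritic input. CA3 pyramidal neurons, which are strongly interconnected, fire in bursts and are sensitive to kainate.

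The study used Sprague-Dawley rats, the same strain in every group, with 4 arrays in all. RNA came from the hippocampal CA3 area 24 h after the injection, which for KA was made into the hippocampus. They received the vehicle PBS, KA (kainic acid, a glutamate receptor agonist that causes seizures and neuronal death), KA together with NAP (a peptide known as neuroprotective), or only NAP. There was 1 array for each treatment, and the labels do not say whether an array held 1 animal or a pool. No age or sex is given. The series text names CA3, while the sample protocols speak of hippocampi. Without replicates a group has no error of its own, and no test was made. A fit with kainate and NAP as additive factors over the 4 arrays would leave 1 residual degree of freedom and was not run. Differences are log2(intensity + 10) on one array minus another, and 2-fold and 1.5-fold are rules of size.

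The arrays were alike in level, with median intensities of 58 to 65 over all probe sets. All 8 markers of CA3 pyramidal neurons and all 14 pan-neuronal markers listed were above 62.75. Markers of CA1, the neighbouring field, differed among the arrays. Their summed intensity over 5 genes was 3153 with PBS, 1327 with KA, 2988 with KA+NAP and 1981 with NAP. NAP minus PBS has no kainate on either side and serves as a gauge of how far arrays can lie apart. Its central 95% over all 9489 measured genes ran from −0.53 to 0.70. Among the 3696 genes brighter than 500 it ran from −0.46 to 0.52. This gauge includes any effect of the peptide.

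Channel genes were mostly lower on both arrays from kainate-injected tissue. Of the 20 measured, 18 lay below 0 in KA minus PBS, against 47.2% of all measured genes. In KA+NAP minus NAP, which shares no array with the first difference, 19 lay below 0, against 47.3%. For 15 of the 20, both kainate arrays lay below both arrays without kainate, an order found in 28.7% of all genes. For 1 gene, Scn7a, both lay above, an order found in 32.3%. The median over the 20 was −0.55 in KA minus PBS and −0.47 in KA+NAP minus NAP, against 0.02 and 0.03 over all measured genes. In bulk tissue, fewer neurons and less channel RNA per neuron cannot be told apart.

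**Figure D1:**
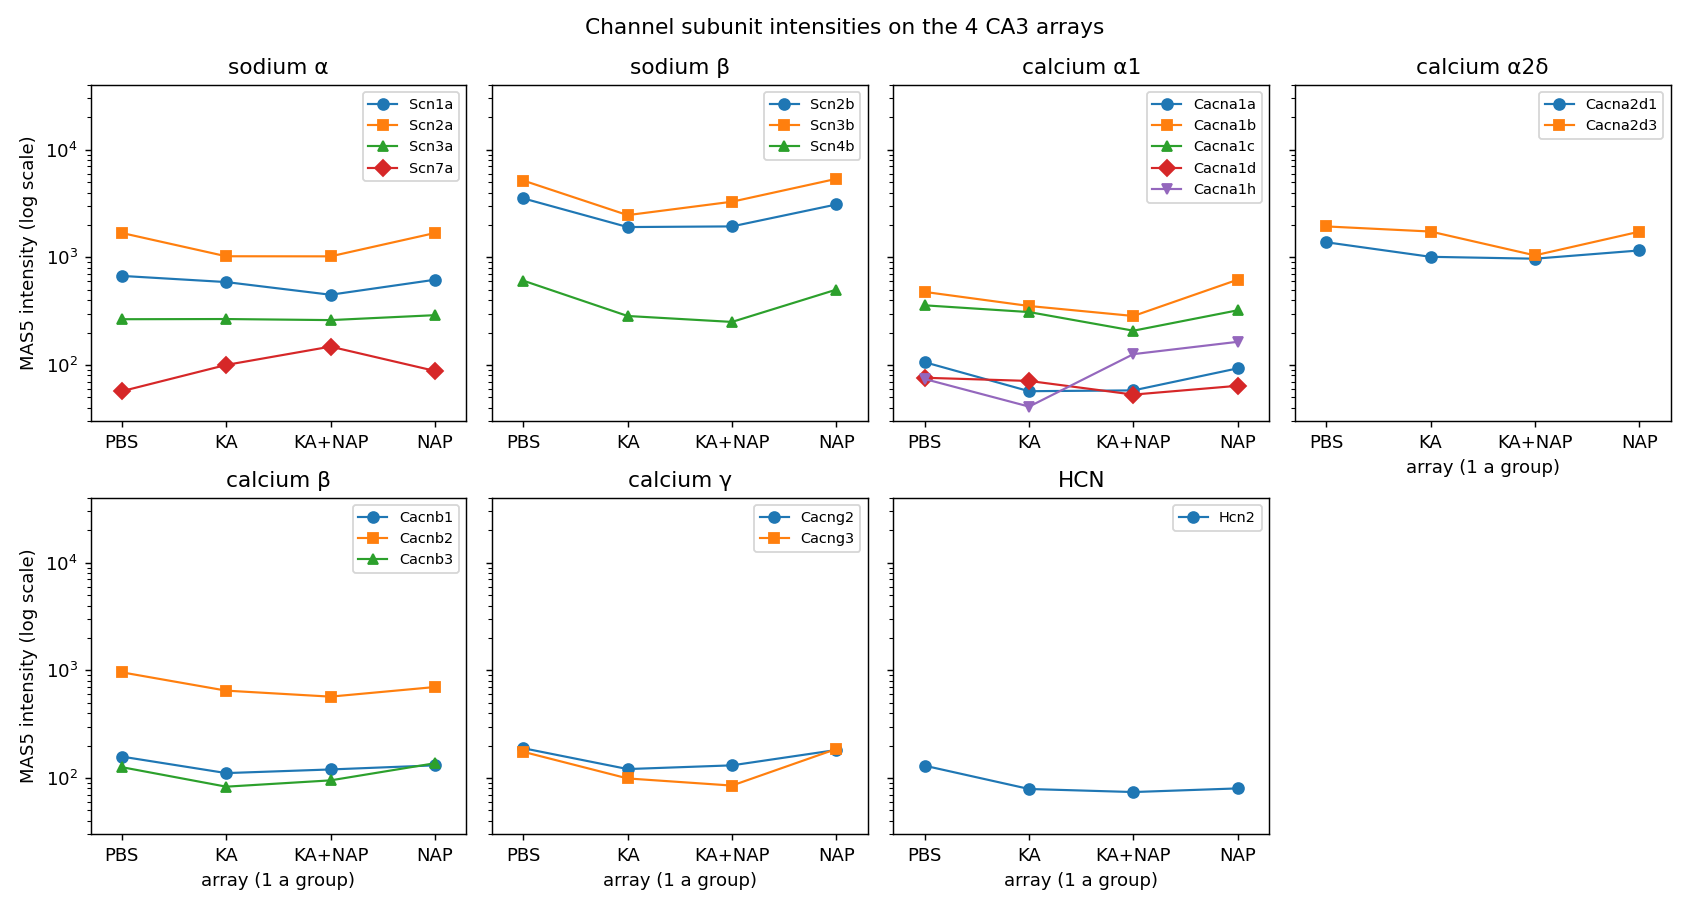
Deposited intensity (log axis) of the 20 measured channel genes on the 4 arrays, in a panel for each subfamily. Each point is 1 array and lines join the values of a gene. The sodium β subunits dip on both kainate arrays, Scn3a is level between 261 and 290, and Scn7a is highest with KA+NAP at 148.

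The differences were moderate in size. In KA minus PBS, 9 of 20 channel genes were at least 1.5-fold lower, against 9.56% of all genes, and 2 (Scn3b and Scn4b) were at least 2-fold lower, against 2.39%. At least 1.5-fold higher was 1 gene, Scn7a, against 12.4%, and at least 2-fold higher none, against 4.91%. In KA+NAP minus NAP, 9 of 20 were again at least 1.5-fold lower, against 9.38%, and 2 (Cacna1b and Cacng3) were at least 2-fold lower, against 2.41%. Scn7a alone was at least 1.5-fold higher, against 13.8%, and none was at least 2-fold higher, against 5.66%. The count in KA minus PBS includes genes of low signal, such as Cacna1a and Hcn2 with mean intensities of 78.5 and 90.75. It was 5 of 20 with a pseudocount of 50 and 4 of 10 with the filter at the 75th percentile. The share of all genes in those settings was not computed, so these counts have no background beside them. Scn2a, Scn2b, Scn3b, Scn4b, Cacna1a and Cacng3 were at least 1.5-fold lower in both differences, 6 of 20 against 4.15% of all genes. None of the 20 reached 2-fold in both, against 0.885% of all genes.

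**Figure D2:**
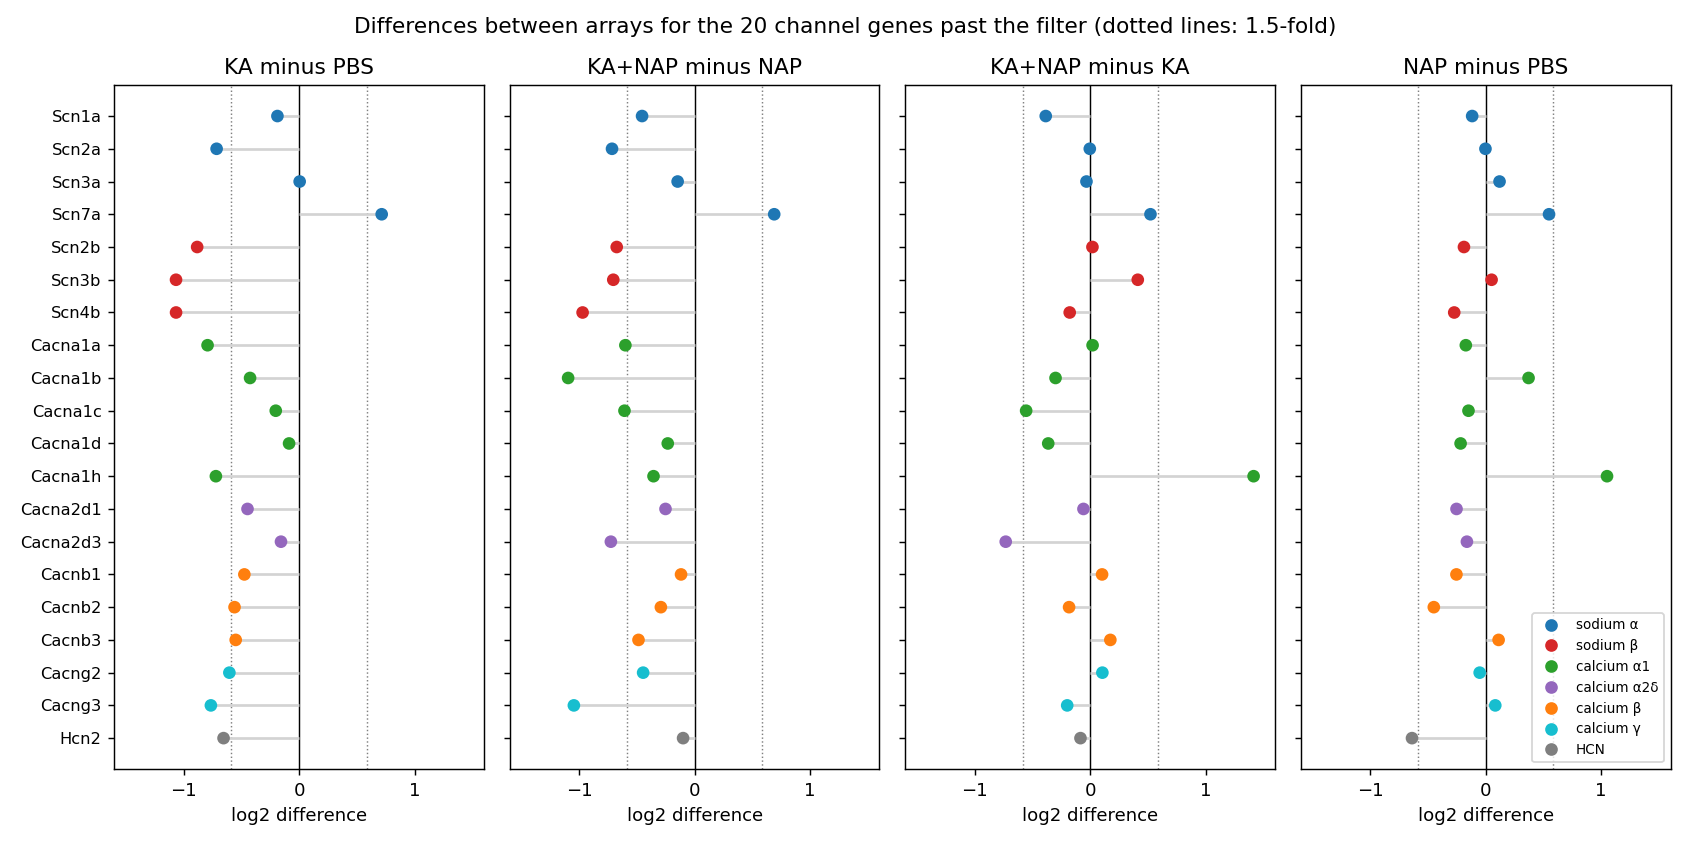
Log2 difference of each measured channel gene in the 4 comparisons, coloured by subfamily, with dotted lines at 1.5-fold. The kainate comparisons (the left pair of panels) have nearly all points left of 0, with medians of −0.55 and −0.47. The right pair of panels, for the peptide, has medians of −0.04 with kainate and −0.13 without, and Cacna1h lies furthest right in both.

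The sodium β subunits had the lowest median of the subfamilies with more than 1 measured gene in KA minus PBS, at −1.06 over 3 genes. In KA+NAP minus NAP their median was −0.70. These proteins have an immunoglobulin-like domain outside the cell and act both on gating and as adhesion molecules. Scn3b had an intensity of 5172 with PBS, 2467 with KA, 3287 with KA+NAP and 5360 with NAP. Both kainate arrays were well below the others, and the KA array was the lowest. The log2 differences were −1.06 without and −0.70 with NAP. A second Scn3b probe set read 3181, 1154, 1648 and 2502 in the same order of arrays, with differences of −1.45 and −0.60.

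Scn2b read 3530 with PBS, 1911 with KA, 1938 with KA+NAP and 3098 with NAP. The kainate arrays were nearly equal to each other, and the differences were −0.88 and −0.67. A dim second probe set gave −0.51 and −0.91. Scn4b, whose product is known as the blocking particle of resurgent sodium current, read 607 with PBS, 285 with KA, 251 with KA+NAP and 501 with NAP. Its kainate differences of −1.06 and −0.97 were close to each other. Averaged over the kainate differences, Scn4b stood at −1.02, a value that only 1.57% of all measured genes were below. The corresponding shares were 2.42% for Scn3b and 3.60% for Scn2b. All 3 genes lay outside the central 95% of NAP minus PBS in both kainate differences.

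The sodium α subunits were divided. Scn2a encodes a main pore subunit of excitatory neurons, found early in life along the axon and later in its initial segment. It read 1684 with PBS, 1023 with KA, 1021 with KA+NAP and 1682 with NAP. The array pairs were nearly identical, and the differences were −0.71 in both comparisons. Scn1a, the pore subunit on which inhibitory interneurons rely most, read 672, 589, 449 and 619 in the same order of arrays. Its differences were −0.19 and −0.45. Scn3a, best known from the developing brain, read 266, 267, 261 and 290, with differences of 0.01 and −0.15.

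Scn7a was the exception. It encodes an atypical channel that senses extracellular sodium and is known from glia rather than from firing neurons. It read 57 with PBS, 100 with KA, 148 with KA+NAP and 88 with NAP. The kainate differences were 0.72 and 0.69, and at least 1.5-fold higher in both comparisons applied to 7.64% of all genes. It was also higher with the peptide, at 0.55 in NAP minus PBS and 0.52 in KA+NAP minus KA, both under 1.5-fold. The signal was dim, and the PBS value lay below the filter threshold. The KA array exceeded the NAP array by only 0.17, and with a pseudocount of 50 the kainate differences were 0.49 and 0.52, both under 1.5-fold. The summed intensity of 5 vascular smooth muscle markers had the same order of arrays, at 403 with PBS, 623 with NAP, 1324 with KA and 2089 with KA+NAP. The order follows Tagln (136, 308, 1048 and 1832 in the same sequence), while Acta2 lay between 60 and 98, Myh11 was lower with kainate at −0.75 and −0.95, and no marker of that list was at 0. The astrocyte marker Gfap had the same order, at 5744 with PBS, 8065 with NAP, 8147 with KA and 9776 with KA+NAP, and so did the macrophage markers Cd68 and Tyrobp. The astrocyte list as a whole did not, with medians of −0.39 and −0.45. The other genes of the microglia and macrophage list did not have the order of Scn7a either, and of these P2ry12 and Tmem119 were highest with PBS. The part of any of these cells in the Scn7a values was not tested.

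These α subunit genes sit close together in the rat genome. In the GRCr8 gene table, Scn3a and Scn2a are adjacent protein-coding genes on chromosome 3, followed after 4 other genes by Scn1a, Scn9a and Scn7a in a row. The neighbours Scn2a and Scn3a differed, with kainate differences of −0.71 and −0.71 against 0.01 and −0.15. Scn7a lay in the opposite direction within the same cluster. Scn2b and Scn4b are adjacent on chromosome 8, and both were lower with kainate. Scn3b lies on the same chromosome, 63 protein-coding genes from Scn2b.

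Among calcium channel pore subunits, all 5 measured genes were below 0 in both kainate differences. Their medians were −0.42 and −0.60. Over all measured genes, 47.2% were below 0 in KA minus PBS and 47.3% in KA+NAP minus NAP. With the mean over all probe sets of a gene, Cacna1d was at 0.24 and Cacna1h at 0.0035 in KA minus PBS. Cacna1b encodes the N-type channel of presynaptic terminals. It read 477 with PBS, 353 with KA, 285 with KA+NAP and 620 with NAP. Both kainate arrays were below the others, and the NAP array was the highest. The differences were −0.42 without and −1.09 with NAP, so the larger one rests partly on a NAP value that was 0.37 above PBS. A dim second probe set gave −0.35 and −0.04. With the mean over both probe sets the differences were −0.39 and −0.57, both under 1.5-fold.

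Cacna1a, the pore of P/Q-type channels, which drive transmitter release at most central synapses, read 106 with PBS, 57 with KA, 58 with KA+NAP and 93 with NAP. The differences were −0.79 and −0.60 on dim signal. With a pseudocount of 50 they were −0.54 and −0.40, and with the mean over its 5 probe sets −0.28 and −0.27, all under 1.5-fold. The other 4 probe sets were below the filter threshold.

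The L-type pore genes differed less without the peptide. Cacna1c read 358 with PBS, 310 with KA, 208 with KA+NAP and 322 with NAP, so that the KA+NAP array alone stood apart. Its differences were −0.20 and −0.61. A dim second probe set gave −0.42 and −0.11. With the mean over both probe sets, KA+NAP minus KA was −0.04 instead of −0.55. Cacna1d was at 76, 71, 53 and 64, just above the filter threshold in its mean of 66.0.

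Cacna1h, a T-type channel that opens near rest and supports burst firing, had a pattern of its own. It read 74 with PBS, 41 with KA, 126 with KA+NAP and 164 with NAP. Both arrays with the peptide were above both without it. The log2 difference was 1.05 in NAP minus PBS and 1.42 in KA+NAP minus KA. At least 2-fold higher applied to 1.05% of all genes in the former and 1.52% in the latter, and Cacna1h was the 1 channel gene at that size. A second probe set, with a mean below the threshold, read 19, 38, 8 and 15. With the mean over both probe sets the values were 0.42 and 0.00, and KA minus PBS turned from −0.72 to 0.0035. Meningeal markers, summed over 5 genes, followed the same order of arrays, at 372 with KA, 583 with PBS, 746 with KA+NAP and 1466 with NAP. Not every gene of that list followed it: Dcn was higher with PBS than with KA+NAP (247 and 211), and Col1a2 was at 75 with both KA and PBS. The endothelial markers summed to 1015, 1092, 1474 and 1500 in the order KA, PBS, KA+NAP and NAP, which Cldn5 alone of the 4 genes followed. Flt1 and Tek were higher with KA than with PBS (124 and 104, 424 and 375). No gene of either list had an intensity of 0, and the part of these cells in the Cacna1h values was not tested.

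The auxiliary α2δ subunits of calcium channels had medians of −0.30 and −0.49 over 2 genes. Cacna2d1, the α2δ protein that binds gabapentin, read 1381 with PBS, 1011 with KA, 971 with KA+NAP and 1158 with NAP. Its differences were −0.45 and −0.25, and both were within the central 95% of NAP minus PBS. Cacna2d3, another α2δ gene, read 1937 with PBS, 1737 with KA, 1043 with KA+NAP and 1730 with NAP. Only the KA+NAP array was low. Its differences were −0.16 in KA minus PBS, −0.72 in KA+NAP minus NAP and −0.73 in KA+NAP minus KA. It was the 1 channel gene at least 1.5-fold lower in KA+NAP minus KA, a size found in 2.87% of all genes.

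The cytoplasmic β subunits, which carry the pore to the membrane and tune its inactivation, had medians of −0.55 and −0.29 over 3 genes. Cacnb2 read 959 with PBS, 648 with KA, 570 with KA+NAP and 700 with NAP, so the PBS array alone was high. Its differences were −0.56 and −0.29, beside −0.45 in NAP minus PBS. A second Cacnb2 probe set gave −0.67, −0.56 and −0.70 in these 3 comparisons. Cacnb3 read 126, 83, 95 and 137 in the order PBS, KA, KA+NAP and NAP, with differences of −0.55 and −0.49. Cacnb1 read 158, 111, 120 and 131, with differences of −0.47 and −0.12.

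The measured γ genes, Cacng2 (stargazin) and Cacng3, encode proteins that traffic AMPA receptors to synapses. Cacng3 read 175 with PBS, 99 with KA, 85 with KA+NAP and 186 with NAP. The kainate arrays were close to each other and far below the others, with differences of −0.76 and −1.04. In the average of both, 2.28% of all measured genes were below Cacng3. Cacng2 read 189, 121, 131 and 182, with differences of −0.60 and −0.45. A second Cacng2 probe set, with a mean at the threshold, gave −0.07 and 0.32. The AMPA receptor subunit genes Gria2 and Gria1, from a list of channel partners, stood at −0.84 and −0.43 in KA minus PBS. In KA+NAP minus NAP they were at −0.66 and −0.34.

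Hcn2 was the only HCN gene measured. It read 130 with PBS, 79 with KA, 74 with KA+NAP and 80 with NAP. The PBS array alone was high, and NAP without kainate was as low as the kainate arrays. The differences were −0.65 in KA minus PBS, −0.10 in KA+NAP minus NAP and −0.64 in NAP minus PBS. At least 1.5-fold lower in NAP minus PBS applied to 1.69% of all genes. Hcn2 was the 1 channel gene in that count.

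**Figure D3:**
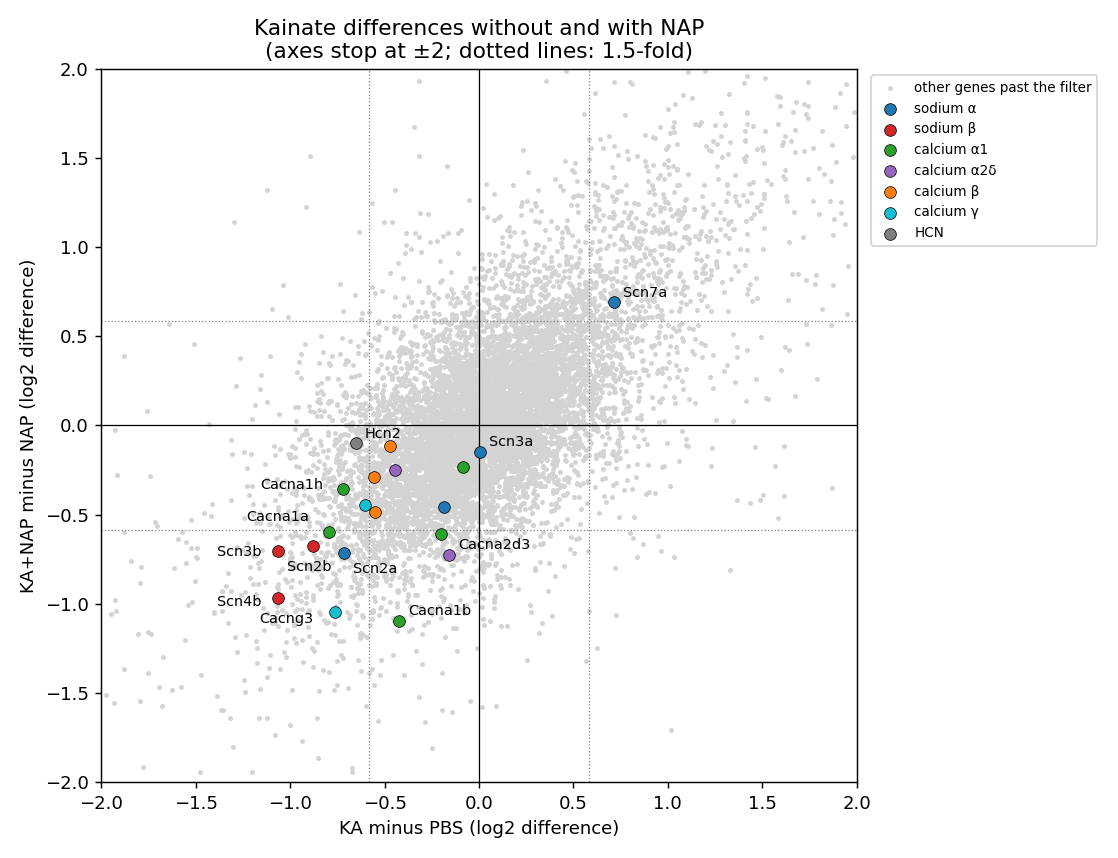
Log2 difference KA minus PBS (x) against KA+NAP minus NAP (y), which share no array. Grey points are all other measured genes, coloured points the 20 channel genes, dotted lines 1.5-fold, and the axes stop at 2 on either side. 19 of the 20 channel genes lie below 0 on the y axis, the 3 sodium β subunits lie among the leftmost, and Scn7a is at 0.72 and 0.69.

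Over the 20 genes, the kainate differences without and with NAP correlated at Pearson r = 0.68 and Spearman rho = 0.45. Without Scn7a these were 0.41 and 0.35, and over all measured genes 0.70 and 0.61. Genes on one pair of arrays share its scaling and RNA and are not independent replicates. The difference between the kainate effects, with NAP less without, had a median of 0.08 over the 20 genes. It was lowest for Cacna1b at −0.67 and Cacna2d3 at −0.57, and highest for Hcn2 at 0.55.

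The peptide arrays gave few differences in channel genes. In KA+NAP minus KA the median over the 20 was −0.04, with 12 below 0 against 45.4% of all genes. Cacna1h was the 1 gene at least 1.5-fold higher, against 6.53%, and none was at least 2-fold lower, against 0.601%. The central 95% of this difference over all measured genes ran from −0.62 to 0.85. Within it lay Scn7a at 0.52 and Scn3b at 0.41, and also Cacna1c at −0.55, Scn1a at −0.38 and Cacna1d at −0.36. Scn2a and Scn2b were at 0.00 and 0.02. In NAP minus PBS the median was −0.13, with 13 below 0 against 45.2%. Cacna1h was again the 1 gene at least 1.5-fold higher, against 3.96%, and none was at least 2-fold lower, against 0.242%. These comparisons share arrays with the kainate differences and are given side by side with them.

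The promoters of 4 genes that were at least 1.5-fold lower in both kainate differences, and stayed so with a pseudocount of 50, are shown because these genes lay lower together. The array bears on no promoter directly. Each sequence is the 250 bases before the gene start in RefSeq (GRCr8), 5′ to 3′ on the strand of the gene. The promoter table held 27 of the 39 genes and 5 of these 6, not Scn3b. Capitals mark motif matches on either strand. Scn2a is at chr3:70710706-70710955 (plus strand), Scn2b at chr8:54322133-54322382 (plus), Scn4b at chr8:54343623-54343872 (plus) and Cacng3 at chr1:186632312-186632561 (plus).
Scn2a: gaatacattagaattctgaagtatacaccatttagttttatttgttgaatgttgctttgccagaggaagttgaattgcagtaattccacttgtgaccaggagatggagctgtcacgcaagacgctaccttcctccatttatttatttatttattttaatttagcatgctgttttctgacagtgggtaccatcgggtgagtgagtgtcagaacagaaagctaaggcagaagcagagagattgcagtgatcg
Scn2b: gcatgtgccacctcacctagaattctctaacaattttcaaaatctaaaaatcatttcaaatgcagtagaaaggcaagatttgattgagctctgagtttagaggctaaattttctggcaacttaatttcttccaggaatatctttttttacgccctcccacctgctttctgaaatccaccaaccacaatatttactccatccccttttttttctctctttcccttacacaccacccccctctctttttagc
Scn4b: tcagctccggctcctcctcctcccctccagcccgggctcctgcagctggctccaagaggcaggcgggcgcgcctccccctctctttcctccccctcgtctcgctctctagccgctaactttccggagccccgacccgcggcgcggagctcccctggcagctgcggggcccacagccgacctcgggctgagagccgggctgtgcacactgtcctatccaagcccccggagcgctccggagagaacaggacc
Cacng3: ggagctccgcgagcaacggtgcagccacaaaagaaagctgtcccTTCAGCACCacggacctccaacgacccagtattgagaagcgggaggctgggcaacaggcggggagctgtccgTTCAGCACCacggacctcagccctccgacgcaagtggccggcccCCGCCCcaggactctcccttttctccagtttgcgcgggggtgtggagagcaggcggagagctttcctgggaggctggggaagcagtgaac

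These 4 windows had little in common. Scn2a and Scn2b were poor in G and C (39.6% and 38.8%), and Scn4b and Cacng3 rich (71.6% and 64.8%). The median was 52.0% over all 27457 promoters of this length. 7 motifs were searched on both strands: the cyclic AMP response element (TGACGTCA), its shorter core (TGACG, contained in the former), the AP-1 site (TGANTCA), the EGR site (GCGNGGGCG), the GC box (GGGCGG), the TATA box (TATAAA) and the left part of the RE1 element bound by the repressor REST (TTCAGNACC). AP-1 and EGR factors are known from seizure-activated neurons. The first 4 motifs and the TATA box were in none of the 5 windows of genes lower in both kainate differences. They were in 1.7%, 19.0%, 6.36%, 4.53% and 13.1% of all promoters. Over the 16 measured genes with a window, the EGR site was in 6 and the GC box in 10, and their median G and C content was 71.6%. The GC box was in 2 of the 5 (Cacna1a and Cacng3) and in 32.4% of all. The RE1 part was in 1.03% of all promoters and occurred in 1 of the 5, with 2 copies in Cacng3 that share the letters TTCAGCACCacggacctc. EGR and GC box matches can overlap. A match is a string of letters and says nothing of binding. Rest itself was dim, at 1, 6, 9 and 4 in the order PBS, KA, KA+NAP and NAP.

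Proteins that bind or regulate these channels were taken from a list of 61 genes, of which 56 were on the array and 47 measured. Their median was −0.36 in KA minus PBS and −0.32 in KA+NAP minus NAP. In the first, 2 were at least 2-fold higher and 3 lower, and in the second 1 was higher and 4 lower. Over all genes these shares were 4.91% and 2.39%, and 5.66% and 2.41%. For 28 of the 47, both kainate arrays were below both others, beside 28.7% of all genes. Kcnip2, a calcium-binding partner of potassium and calcium channels, read 932 with PBS, 350 with KA, 317 with KA+NAP and 927 with NAP, with differences of −1.39 and −1.52. Akap5, the scaffold that tethers kinase and phosphatase to L-type channels, read 210, 43, 61 and 173, with differences of −2.05 and −1.37. Akap12, another kinase scaffold, was higher at 1.44 and 1.30. Gem, a small GTPase that binds calcium channel β subunits and lowers calcium current, read 36 with PBS, 148 with KA, 94 with KA+NAP and 50 with NAP, with differences of 1.78 and 0.79. Cnih2, an AMPA receptor auxiliary protein, was at −1.31 without and −0.08 with NAP. Prkaca, a catalytic subunit of protein kinase A, and Syt1, the calcium sensor of transmitter release, were at −1.04 and −1.02 in KA+NAP minus NAP. In KA minus PBS they were not lower, at 0.28 and 0.01, and their NAP values were 0.57 and 0.23 above PBS.

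Proteins that gather sodium channels at the axon initial segment differed among themselves. Ank3 (ankyrin G) was at −0.42 and −0.23 and Sptbn4 (a spectrin) at −0.42 and −0.62. The adhesion molecules Nfasc and Nrcam were at 0.33 and 0.11, and at −0.32 and 0.02. Fgf13 and Fgf12, which bind the tail of sodium channel α subunits, were at −0.48 and −0.71, and at −0.41 and −0.48. Nalcn, a sodium leak channel outside the named families, and its partner Unc80 were at −0.14 and −0.83, and at −0.53 and −0.81.

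**Figure D4:**
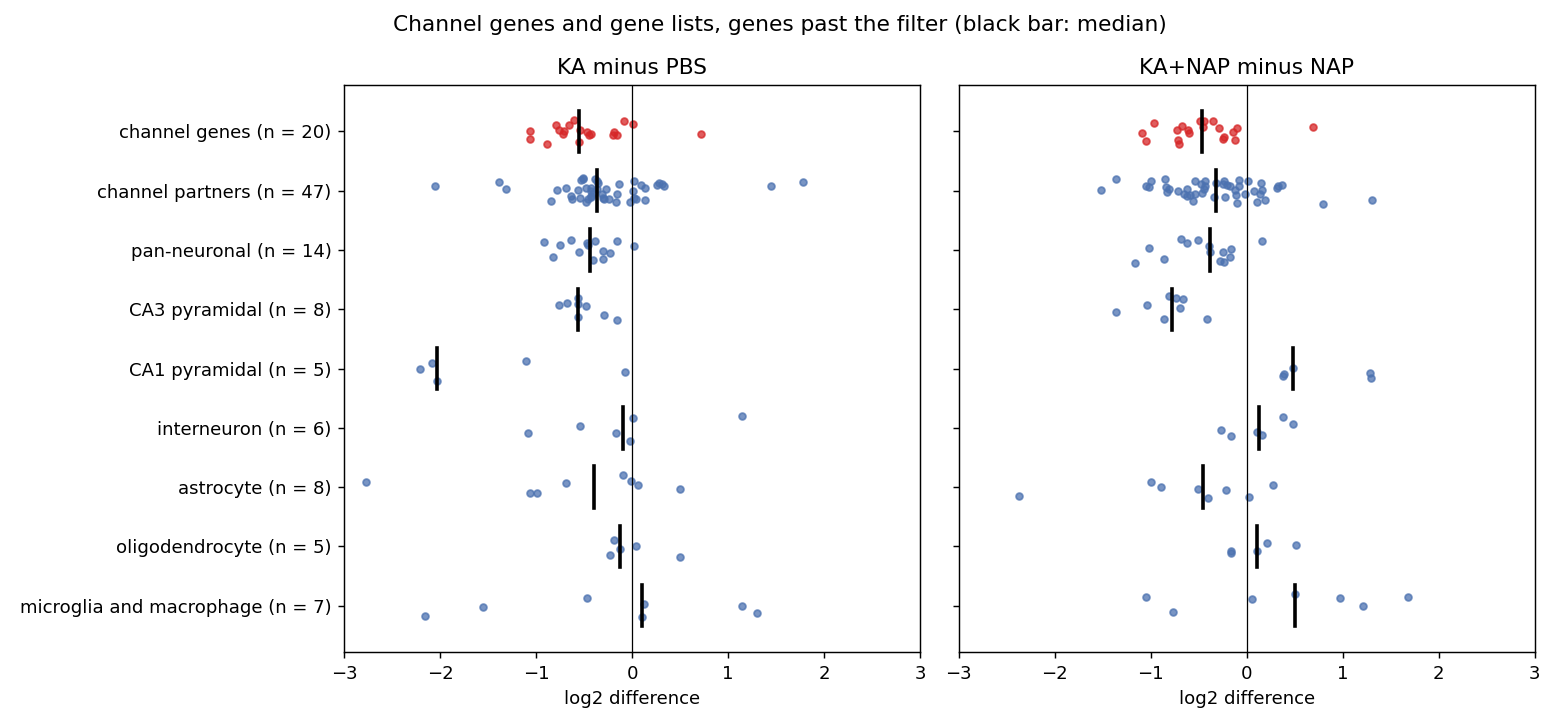
Log2 differences KA minus PBS (left) and KA+NAP minus NAP (right) of the measured genes of each list, with a black bar at the median. Channel genes (red) and lists of other genes (blue) are on separate lines with small vertical scatter. Medians are negative in both panels for the channel genes and for pan-neuronal (−0.44 and −0.39) and CA3 (−0.56 and −0.77) markers. The same holds for astrocyte markers (−0.39 and −0.45) and channel partners (−0.36 and −0.32), while CA1 markers are at −2.04 and 0.48.

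Neuronal markers were lower on the same arrays as the channel genes. The summed intensity of 14 pan-neuronal markers was 52945 with PBS, 38990 with KA, 38694 with KA+NAP and 49019 with NAP. For 12 of the 14, both kainate arrays were below both others, an order found in 28.7% of all genes. Their medians were −0.44 and −0.39. CA3 pyramidal markers had medians of −0.56 and −0.77 over 8 genes, and 7 of the 8 had both kainate arrays below. 2 of the 14 pan-neuronal and 1 of the 8 CA3 markers were at least 1.5-fold lower in both differences, beside 6 of the 20 channel genes and 4.15% of all genes. No difference between these lists was tested. Interneuron markers were at −0.09 and 0.13 over 6 genes, with a summed intensity between 5110 and 5590. Among them Gad2 was at 1.15 and Pvalb at −1.08 in KA minus PBS. Dentate granule cell markers, of which 2 were measured, were at −0.08 and −0.76. The part of neuron number in the channel values was not tested. CA1 markers had medians of −2.04 in KA minus PBS and 0.48 in KA+NAP minus NAP. The part of CA1 tissue in the channel values was not tested.

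Markers of other cell types had no common direction. Astrocyte markers had medians of −0.39 and −0.45 over 8 genes, with a summed intensity of 31067, 26273, 28413 and 32618 in the order PBS, KA, KA+NAP and NAP. Of these 8, 3 were at least 1.5-fold lower in both kainate differences, against 4.15% of all genes. For 5 of the 8, both kainate arrays lay below both others, against 28.7%. Oligodendrocyte markers were at −0.13 and 0.11 over 5 genes, and their precursors' markers at −0.26 and 0.23 over 4. Microglia and macrophage markers had medians of 0.10 and 0.50 over 7 genes that went both ways. In KA minus PBS, P2ry12 was at −2.16 and Tmem119 at −1.55, while Cd68 was at 1.30 and Tyrobp at 1.14. Endothelial markers had medians of 0.17 and −0.19 over 3 genes, and smooth muscle markers of 0.30 and −0.17 over 3. Meningeal markers were at −0.23 and −0.99 over 4, and choroid plexus markers at 0.19 and −1.37 over 2.

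The 19 dim genes give no differences that can be read. Just below the threshold came Cacnb4 with a mean of 40.0, Hcn3 with 39.8 and Scn8a with 37.5, against 66.0 for Cacna1d just above it. Scn8a, a major pore subunit of the mature initial segment, did not exceed 45 on any array, and Cacnb4 did not exceed 50. Hcn3 did not exceed 52. The highest values of the other dim sodium channel genes were 51 for Scn11a, 34 for Scn10a, 29 for Scn9a and 13 for Scn4a, genes known mainly from peripheral neurons and muscle. Among calcium pores, Cacna1g reached 35, Cacna1i 30, Cacna1e 14, Cacna1f 6 and Cacna1s 4. The γ genes reached 39 (Cacng7), 32 (Cacng6), 27 (Cacng5), 21 (Cacng8), 17 (Cacng4) and 13 (Cacng1), and Hcn4 reached 4. A dim probe set does not show that the gene is silent, since probe sets differ in how well they bind.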

How the data were processed

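RNA of 4 samples was measured on Affymetrix rat arrays, 1 array a group. Per the labels' protocols, 500 ng of total RNA went through the 2-cycle protocol to biotin-labelled cRNA. The authors computed intensities with MAS5, as the submitters' processing notes record (its version is not given in the sources used here). Values of intensity as deposited are linear whole numbers, and their mean after removal of 2% of values at each end was 250.1 on each array. Detection calls were not used here. No array was left out, and the number of arrays limits the precision.

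Genes were named from the platform annotation, with symbols updated through the GRCr8 table (20764 of 20832 singly named probe sets matched). No build is named for the deposited values. The pseudocount was 10, and 20.7% of all values were at or below it. Differences were computed in Python 3.11.15 with pandas 2.3.3 and checked on simulated data. No test was made. The alternatives were pseudocounts of 1 and 50, a filter at the 75th percentile or none, the mean over probe sets, quantile normalization, centring, and the other array without kainate as control. Members were named by subfamily. Those at 1.5-fold in any difference, or brightest in their subfamily, were to have values on all arrays. From each list, at most the genes at 2-fold in a kainate difference and those that define the tissue were to be named. Not every list gene at 2-fold is named. Other measured members and list genes (Ank3, Sptbn4, Fgf12, Fgf13, Nalcn, Unc80, Gria1, Gria2, Rest, Nfasc, Nrcam, Gfap, Acta2, Myh11, Cldn5, Flt1, Tek, Col1a2) were named after their values were seen. The members and lists were chosen with earlier results of these data known.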

Additional observations from a re-analysis of the deposited data

Results flagged for a closer look

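The following genes had differences of opposite sign for the same treatment in the 2 settings, NAP with and without KA, or KA with and without NAP. Each setting has 1 array a group, so these differences were not tested, and an opposite sign near 0 is common. Cacna1b was the furthest apart, at 0.371 in NAP minus PBS and −0.299 in KA+NAP minus KA. With the mean over its probe sets these were 0.094 and −0.087. Cacnb1 was at −0.253 and 0.104, Cacng3 at 0.0833 and −0.198, and Scn2b at −0.188 and 0.0201. Cacna1a was at −0.171 and 0.0214, Cacng2 at −0.0517 and 0.106, and Scn3a at 0.12 and −0.0316, in the same order of comparisons. Scn3a was also the 1 gene of opposite sign for kainate, at 0.00522 in KA minus PBS and −0.147 in KA+NAP minus NAP.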

How the results depend on the processing

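Over the channel genes, 60 medians and counts were recomputed, and 48 of these moved little (by no more than 0.1 in a median, or 1.5 times in a count). Every recomputed median stayed below 0, while a count has no direction to keep. The median in KA minus PBS was −0.44 with a pseudocount of 50, −0.20 with no filter on low values (39 genes), −0.37 with the mean over all probe sets of a gene, and −0.39 against the NAP array. The median in KA+NAP minus NAP was −0.69 with the filter at the 75th percentile (10 genes), −0.29 with no filter and −0.68 against the PBS array. In KA+NAP minus KA it was −0.18 with that stricter filter, and in NAP minus PBS −0.029 with no filter. The count at least 1.5-fold lower in KA minus PBS was 5 with a pseudocount of 50 and 4 of 10 with the stricter filter. The matching shares of all genes were not computed. With the stricter filter, 9 of the 10 genes had both kainate arrays below. Of the 6 genes lower in both kainate differences, all 6 were kept with a pseudocount of 1, no filter, quantile normalization and centring. Cacna1a was lost with a pseudocount of 50 and with the mean over probe sets, and Cacna1a and Cacng3 with the stricter filter, which leaves them out. Single-gene differences cannot move with a filter, nor with the mean over probe sets where a gene has 1 probe set. Of the 400 other recomputed values, 321 moved by no more than 0.1, 78 moved more, and 1 that had reached 1.5-fold was reversed, Cacna1h in KA minus PBS at 0.0035 with the mean over probe sets. No paired analysis was possible because the arrays carry no replicate numbers, and no test was made. The kainate differences within each NAP status are given side by side instead. Leaving out a replicate was likewise not possible. Signal over background was not examined, and values of the dim genes cannot be read.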
